A study of Mus musculus with 9 samples.

Results

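Interferon response and major histocompatibility complex (MHC) class I genes were followed in mouse embryonic stem cells that lack Zfp352 alone or together with Zfp353. The 38 genes were picked by symbol with earlier results of these data known, and all 38 were found among the 24411 genes of the deposited tables. They comprise 7 receptors and transcription factors, 6 genes of RNA sensing, 13 effectors and 12 genes of antigen presentation. All cells belong to EB5, made from male E14tg2a stem cells of strain 129Ola, in which an Oct3/4 allele carries a blasticidin resistance gene (Oct3/4 IRES-BSD-pA/+). They were grown on gelatin in serum and leukemia inhibitory factor. All 9 libraries share this background and differ by genotype. Parental cells carry no Zfp352 or Zfp353 deletion, Zfp352-KO cells had Zfp352 removed by CRISPR-Cas9, and Zfp352/Zfp353-DKO cells had both genes removed that way. Each genotype has 3 libraries. Whether these are separate cultures or clones is not stated in the labels, so a p-value reflects only how far such libraries spread, possibly for technical reasons.

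Interferons bind receptors at the cell surface, and the receptors act through JAK kinases on STAT and IRF transcription factors. These bind interferon-stimulated response elements (ISRE) and gamma-activated sites (GAS) in promoters and switch on antiviral effectors together with the genes that cut, transport and display peptides on MHC class I molecules. Double-stranded RNA detected by cytosolic sensors such as RIG-I is a trigger of interferon production. Pluripotent stem cells are known for a weak interferon response and a low level of MHC class I.

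Zfp352, deleted in both edited genotypes, was measured first as a check of the labels. It had expected counts of 47, 52 and 41 in Parental, 3, 8 and 10 in Zfp352-KO, and 1, 1 and 3 in Zfp352/Zfp353-DKO libraries. Every library of an edited genotype was below every Parental library, and the log2 fold changes were -2.65 ± 0.32 and -4.64 ± 0.42 (SE). Zfp353 was not analysed here, so the second deletion of the Zfp352/Zfp353-DKO label is not checked by a value. Libraries held 16599004 to 22044820 expected counts, and 14300 genes had enough counts to be tested. The 12 pluripotency markers were present at summed levels of 8260 to 8450 TPM, a level normalized for transcript length and depth. Zfp352/Zfp353-DKO library 3 stood apart in a list of 10 leukocyte markers, with a sum of 70.4 TPM against 31.4 to 39.8 TPM in the other 8 libraries. Lyz2, the macrophage lysozyme gene, was at 19.69 TPM there and at most 0.58 TPM elsewhere. The macrophage receptor gene Csf1r was at 1.52 TPM there and at most 0.35 elsewhere, and the integrin gene Itgam at 0.72 and at most 0.31 TPM. Ptprc, which defines leukocytes, was near the floor, at 0.10 TPM there and at most 0.07 TPM elsewhere. It had 7 counts over the Parental and 7 over the Zfp352/Zfp353-DKO libraries. Cd52 and Cd14 of the same list were not highest there, at 0.48 and 0.39 TPM against up to 0.84 and 0.54 TPM elsewhere.

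Members called lower in the edited cells lay mainly among the effectors and in antigen presentation, and led with the guanylate-binding protein genes Gbp2b and Gbp2. Of the 33 members tested, 11 were lower and 1 higher in Zfp352-KO than in Parental cells at an adjusted p under 0.05 (edgeR), where 3.64% of all tested genes were called lower and 3.43% higher. In Zfp352/Zfp353-DKO cells 12 were lower and 0 higher, against 4.82% and 3.65% of all tested genes. Both comparisons use the same Parental libraries. At an unadjusted p under 0.05, in either direction, there were 18 and 19 of the 33 members. Of all 14300 tested genes, 3396 and 3508 were under that value. A fixed list of further pathway genes, 93 of which were tested, had 2 higher and 1 lower in Zfp352-KO and 0 higher and 6 lower in Zfp352/Zfp353-DKO cells. The median log2 fold change of the tested members was -0.22 in either comparison, and that of all tested genes was -0.01 in Zfp352-KO and 0.00 for Zfp352/Zfp353-DKO cells. In CPM, the counts scaled to library size, every Zfp352-KO library lay below every Parental library for 17 of the 33 members, against 14.4% of all tested genes. The same held in Zfp352/Zfp353-DKO cells for 18 of the 33, against 15.0%. Of the tested members, 32 had at least 10 counts in all 9 libraries. The exception was Rsad2.

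Without Zfp352/Zfp353-DKO library 3, 11 members were lower in Zfp352/Zfp353-DKO cells, and Irf1 lost its call. In that fit Zfp352-KO cells had 12 members lower and 1 higher.

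**Figure D1:**
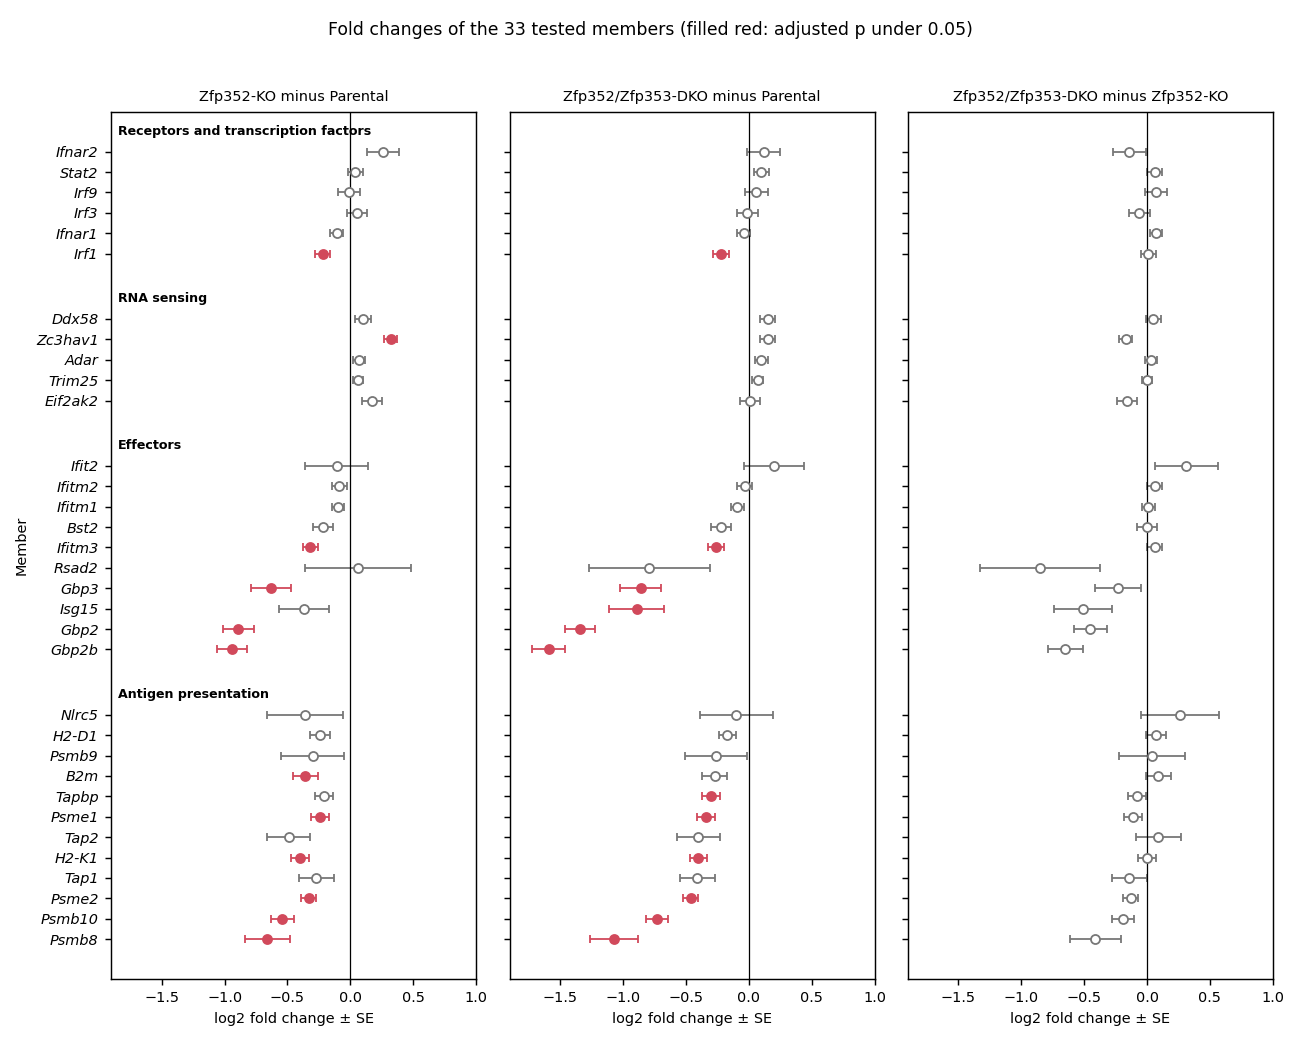
Log2 fold change ± SE of the 33 tested members (rows, grouped by role) in the 3 comparisons (panels), with adjusted p under 0.05 filled in red. All 12 antigen presentation members lie left of 0 in both comparisons with Parental cells, the 5 RNA sensing members lie at or right of 0 in those comparisons, and no member is called between the edited genotypes.

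The members spanned a wide range of levels. By their mean over the 9 libraries, 6 stood above 100 TPM, 14 between 10 and 100, 10 between 1 and 10 and 8 under 1 TPM. Ifitm1 was the most abundant, at 798 ± 20.5 TPM in Parental cells (SD, n = 3), and the classical inducible genes were near the bottom. Ifit1, Ifit3, Usp18, Irf7 and Ifih1 had too few counts to be tested. Genes for the interferons themselves gave almost no reads: of 14 ligand genes, 11 had 0 counts in all 9 libraries and none was tested.

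**Figure D2:**
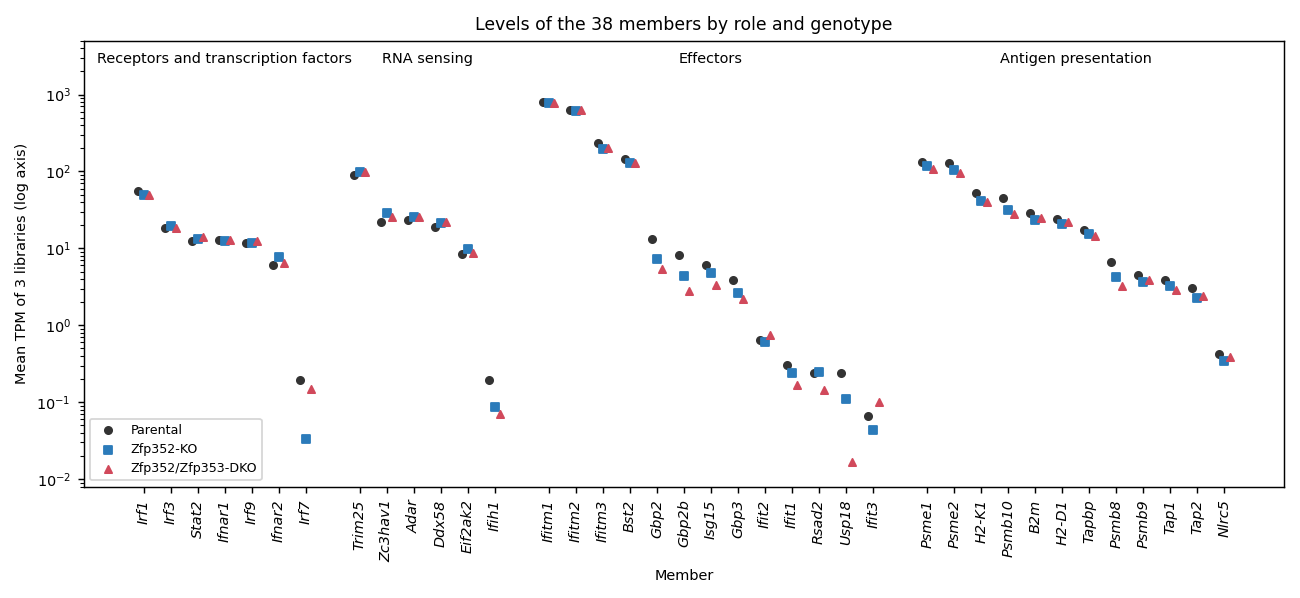
Mean TPM of 3 libraries (log axis) for each of the 38 members, ordered by level within each role, with 1 symbol per genotype. Ifitm1 and Ifitm2 lie highest, and the Gbp genes, Isg15 and Psmb8 lie between 1 and 14 TPM with Parental above both edited genotypes.

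Among receptors and transcription factors, 1 of 6 tested members was called in each comparison with Parental cells, and it was Irf1 both times. Irf1 encodes a factor that turns on genes of the interferon response and of antigen presentation. It stood at 56.90, 56.13 and 56.39 TPM in Parental libraries, 51.36, 47.28 and 51.56 TPM in Zfp352-KO libraries and 51.03, 50.35 and 48.62 TPM in Zfp352/Zfp353-DKO libraries. All 6 edited libraries were below the 3 Parental ones, and the edited genotypes overlapped. Irf1 fell by 0.22 ± 0.06 on the log2 scale in both edited genotypes (adjusted p = 0.027 in Zfp352-KO and 0.024 for Zfp352/Zfp353-DKO). The call was lost in 9 and 7 of 21 alternative analyses, among them the omission of single libraries.

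The other 5 tested members of the group were not called. Ifnar1 and Ifnar2 encode the chains of the type I interferon receptor. Ifnar1 was at 12.33, 13.01 and 13.45 TPM in Parental, 12.61, 12.37 and 12.05 TPM in Zfp352-KO and 12.46, 12.68 and 13.65 TPM in Zfp352/Zfp353-DKO libraries. The genotypes overlapped in TPM, whereas in CPM the Zfp352-KO libraries were below all others (log2 fold change -0.11 ± 0.05 against Parental cells, adjusted p = 0.20). Ifnar2 was at 5.95, 5.72 and 6.33 TPM in Parental, 7.71, 7.81 and 7.76 TPM in Zfp352-KO and 7.5, 5.26 and 6.89 TPM in Zfp352/Zfp353-DKO libraries. The 3 Zfp352-KO libraries were above the Parental ones for Ifnar2, but on 88 to 119 counts a library the log2 fold change of 0.26 ± 0.13 had an adjusted p of 0.25.

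Stat2, Irf9 and Irf3 are the signal carriers behind that receptor and the RNA sensors: STAT2 and IRF9 act in a complex that binds ISRE, and IRF3 switches on the interferon beta gene. Stat2 was at 12.55, 11.76 and 13.51 TPM in Parental, 14.51, 12.63 and 13.19 TPM in Zfp352-KO and 14.12, 13.68 and 13.86 TPM in Zfp352/Zfp353-DKO libraries. Irf9 was at 11.33, 11.30 and 12.12 TPM in Parental, 10.63, 12.62 and 12.30 TPM in Zfp352-KO and 13.89, 11.22 and 12.36 TPM in Zfp352/Zfp353-DKO libraries. Irf3 was at 18.02, 18.61 and 18.12 TPM in Parental, 19.05, 19.15 and 20.26 TPM in Zfp352-KO and 20.76, 17.58 and 17.41 TPM in Zfp352/Zfp353-DKO libraries. In CPM the genotypes overlapped for all 3 genes, and their 6 log2 fold changes against Parental cells lay between -0.01 and 0.10. In TPM the Zfp352/Zfp353-DKO libraries were above the Parental ones for Stat2, and the Zfp352-KO libraries were above them for Irf3. Irf7, the factor that amplifies an interferon response, had 0 to 5 counts a library.

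The fixed list of 12 further receptor, kinase and regulator genes (Ifngr1, Jak1, Socs1 and others) had 0 called members in Zfp352-KO (2 at an unadjusted p under 0.05, and 0 by DESeq2 or limma-trend) and 1 in Zfp352/Zfp353-DKO cells. That gene was Socs3, an inhibitor of JAK signalling that leukemia inhibitory factor also induces, with 69.7 ± 1.36 TPM in Parental and 62.8 ± 1.70 TPM in Zfp352/Zfp353-DKO cells (log2 fold change -0.19 ± 0.05, adjusted p = 0.026), a call that DESeq2 made and limma-trend did not. Of 12 tested factors, only Rfxap was called in Zfp352-KO cells, at -0.43 ± 0.10 (adjusted p = 0.021), also by DESeq2 but not by limma-trend. In Zfp352/Zfp353-DKO cells 0 were called (1 at an unadjusted p under 0.05, and 0 by DESeq2 or limma-trend). Rfxap encodes a subunit of the RFX complex at MHC promoters.

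The tested RNA sensing members had 0 lower calls by edgeR, DESeq2 or limma-trend. All 5 tested members had log2 fold changes above 0 against Parental cells in both edited genotypes. An unadjusted p under 0.05 was reached by 1 in Zfp352-KO cells and 2 when both genes were deleted. Over all 14300 tested genes, 3396 and 3508 reached it. Of the 5 members, only Zc3hav1 in Zfp352-KO cells was called. Zc3hav1 encodes ZAP, which binds CpG-rich viral RNA. It was at 21.91, 20.92 and 23.98 TPM in Parental, 30.46, 28.57 and 27.18 TPM in Zfp352-KO and 25.27, 24.82 and 26.07 TPM in Zfp352/Zfp353-DKO libraries. The Zfp352-KO libraries were the highest, the Zfp352/Zfp353-DKO libraries came next, and no genotypes overlapped. Zc3hav1 rose by 0.32 ± 0.05 in Zfp352-KO cells (adjusted p = 0.0018), and this call was kept in all 21 alternatives. In Zfp352/Zfp353-DKO cells it differed by 0.15 ± 0.06 (adjusted p = 0.11). The difference between the edited genotypes, -0.17 ± 0.05, had an adjusted p of 0.44, so a stronger response in one of them was not shown.

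The uncalled sensors were Ddx58, Trim25, Eif2ak2 and Adar. Ddx58 encodes RIG-I and Trim25 a ubiquitin ligase that acts on it, while Eif2ak2 encodes the kinase PKR and Adar the enzyme that edits adenosine in double-stranded RNA. Their log2 fold changes against Parental cells ran from 0.01 (Eif2ak2 in Zfp352/Zfp353-DKO) to 0.17 (Eif2ak2 in Zfp352-KO), and Trim25 was the most abundant at 90.9 ± 3.74 TPM in Parental cells. Ifih1, which encodes the sensor MDA5, had 36 counts over the 3 Parental libraries (14, 9 and 13), 4, 5 and 5 counts in Zfp352-KO and 7, 1 and 4 counts in Zfp352/Zfp353-DKO libraries. It was too low to be tested with all libraries. Without Zfp352/Zfp353-DKO library 1, which held the 7 counts, it passed the filter through its Parental counts alone. It was then called lower in Zfp352/Zfp353-DKO cells (-2.09, adjusted p = 0.039). Both the filter and the omitted library favour such a call, so no result is drawn from it. In the fixed list of 25 further sensing genes, 23 were tested. Dicer1, the nuclease of small RNA processing, was higher in Zfp352-KO cells (0.18 ± 0.05, adjusted p = 0.050 after rounding), and Oasl2, an oligoadenylate synthetase-like gene, was lower in Zfp352/Zfp353-DKO cells (-0.71 ± 0.16, adjusted p = 0.0074). DESeq2 called both genes, and limma-trend called only Oasl2.

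Effectors held the largest falls of any role. Of 10 tested members, 4 were lower in Zfp352-KO cells and 5 in Zfp352/Zfp353-DKO cells, with median log2 fold changes of -0.27 and -0.52. Among all tested genes, 3.64% and 4.82% were called lower. Gbp2b and Gbp2 fell most in both edited genotypes, followed by Gbp3 in Zfp352-KO and by Isg15 and Gbp3 in Zfp352/Zfp353-DKO cells. The 3 Gbp genes are guanylate-binding protein genes, which encode interferon-inducible GTPases that attack pathogens inside cells. They lie next to each other on chromosome 3 (GRCm38.p6, RefSeq): Gbp3 at 142560016 to 142573213, Gbp2b at 142594816 to 142619179 and Gbp2 at 142620663 to 142638008.

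Gbp2b was at 9.73, 6.87 and 7.77 TPM in Parental, 4.51, 4.06 and 4.62 TPM in Zfp352-KO and 2.7, 2.78 and 2.82 TPM in Zfp352/Zfp353-DKO libraries. The 3 genotypes did not overlap, with Parental highest and Zfp352/Zfp353-DKO lowest. Gbp2b was 1.92-fold lower in Zfp352-KO cells (a log2 difference of -0.94 ± 0.12, adjusted p = 0.00016) and 3.02-fold lower in Zfp352/Zfp353-DKO cells (-1.59 ± 0.13, adjusted p = 2.1e-07). Gbp2 was at 15.59, 11.78 and 12.59 TPM in Parental, 6.81, 7.46 and 7.85 TPM in Zfp352-KO and 4.81, 4.98 and 6.54 TPM in Zfp352/Zfp353-DKO libraries, again with no overlap and in the same order. It was 1.86-fold lower in Zfp352-KO (-0.89 ± 0.12, adjusted p = 0.00016) and 2.54-fold lower in Zfp352/Zfp353-DKO cells (-1.34 ± 0.12, adjusted p = 7.6e-07). Both genes kept their calls against Parental cells in all 21 alternatives.

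Gbp3 was at 4.83, 3.25 and 3.64 TPM in Parental, 2.91, 2.29 and 2.64 TPM in Zfp352-KO and 1.97, 2.29 and 2.36 TPM in Zfp352/Zfp353-DKO libraries. Parental libraries were the highest, and the edited genotypes overlapped. Gbp3 fell by 0.63 ± 0.16 in Zfp352-KO (adjusted p = 0.024) and by 0.86 ± 0.16 in Zfp352/Zfp353-DKO cells (adjusted p = 0.0025). The Zfp352-KO call was lost in 5 alternatives, including without Parental library 1 (adjusted p = 0.16), the highest of the 9 for all 3 Gbp genes.

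Reads of Gbp2b and Gbp2 cannot be fully told apart, and the deposited counts were divided between them. Each had counts that were not whole in 9 of 9 libraries, whereas their sum was whole, within 0.02 counts, in 9 of 9. Summed, which was chosen after the data were seen, the pair had 770, 544 and 547 counts in Parental, 250, 343 and 347 in Zfp352-KO and 218, 206 and 226 in Zfp352/Zfp353-DKO libraries. The pair fell by 0.91 ± 0.10 and by 1.44 ± 0.11 on the log2 scale (adjusted p = 2.3e-05 and 4.1e-08), so its fall does not rest on how the reads were divided. With Gbp3 added, the falls were 0.86 ± 0.10 and 1.34 ± 0.10. This larger sum was not whole in 9 of 9 libraries, so some reads of Gbp3 also fit another row.

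Isg15 encodes a ubiquitin-like modifier that is among the first products of an interferon response. It was at 5.47, 6.20 and 6.33 TPM in Parental, 5.03, 5.07 and 4.25 TPM in Zfp352-KO and 2.54, 3.33 and 4.23 TPM in Zfp352/Zfp353-DKO libraries, on 20 to 49 counts a library. No genotypes overlapped, though the lowest Zfp352-KO and the highest Zfp352/Zfp353-DKO library were nearly equal. Isg15 was 1.85-fold lower in Zfp352/Zfp353-DKO cells (-0.89 ± 0.22, adjusted p = 0.016), and this call was lost without Parental library 2 (adjusted p = 0.065), Zfp352/Zfp353-DKO library 1 (0.064) or Zfp352/Zfp353-DKO library 2 (0.055). In Zfp352-KO cells the difference was -0.37 ± 0.20 (adjusted p = 0.28). Usp18, which encodes the protease that removes ISG15 from proteins, had 7, 4 and 3 counts in Parental, 1, 3 and 2 in Zfp352-KO and 1, 0 and 0 in Zfp352/Zfp353-DKO libraries and was not tested.

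The Ifitm genes, whose membrane proteins block virus entry, differed from the Gbp genes in level and in size of change. Ifitm3 was at 238.09, 233.40 and 229.14 TPM in Parental, 185.58, 184.72 and 207.62 TPM in Zfp352-KO and 205.77, 193.45 and 202.48 TPM in Zfp352/Zfp353-DKO libraries. Parental libraries were the highest, and the edited genotypes overlapped. Ifitm3 fell by 0.32 ± 0.06 in Zfp352-KO (adjusted p = 0.0040) and by 0.26 ± 0.06 in Zfp352/Zfp353-DKO cells (adjusted p = 0.012). Ifitm1, nearby on chromosome 7, shares reads with it: both had counts that were not whole in 4 of 9 libraries, and their sum was whole in 9. Ifitm1 and Ifitm2 were not called, with log2 fold changes of -0.10 and -0.09 in Zfp352-KO and -0.09 and -0.03 in Zfp352/Zfp353-DKO cells. Summed with Ifitm1, the values were -0.15 ± 0.05 (adjusted p = 0.058) and -0.13 ± 0.05 (adjusted p = 0.089), and the call was lost. The sum mainly follows Ifitm1, which had 16654.66 counts over the Parental libraries against 4600.34 for Ifitm3. Whether the division of reads lowered Ifitm3 was not tested.

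Other effectors were not called. Bst2, which encodes the virus-tethering protein tetherin, stood at 146 ± 6.26 TPM in Parental and 129 ± 17.4 and 129 ± 6.01 TPM in the edited genotypes (log2 fold change -0.22 ± 0.08 in both, adjusted p = 0.098 and 0.096). It passed the threshold in both comparisons when low genes were not filtered out (adjusted p = 0.039 and 0.035). Ifit2 and Rsad2, both antiviral genes that interferon induces strongly, stayed under 1 TPM in every library, with standard errors of 0.24 to 0.48 against Parental cells. Of 24 tested genes in a fixed list of 45 further effectors, 0 were called in Zfp352-KO and 2 were lower in Zfp352/Zfp353-DKO cells. These were Gbp7, another guanylate-binding protein gene (-0.94 ± 0.22, adjusted p = 0.013), and Ifi35 (-0.33 ± 0.10, adjusted p = 0.043). DESeq2 called only Gbp7 there, and limma-trend called 0. In Zfp352-KO cells the list had 4 genes at an unadjusted p under 0.05, and DESeq2 and limma-trend called 0. Of all 14300 tested genes, 3396 had an unadjusted p under 0.05 there.

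**Figure D3:**
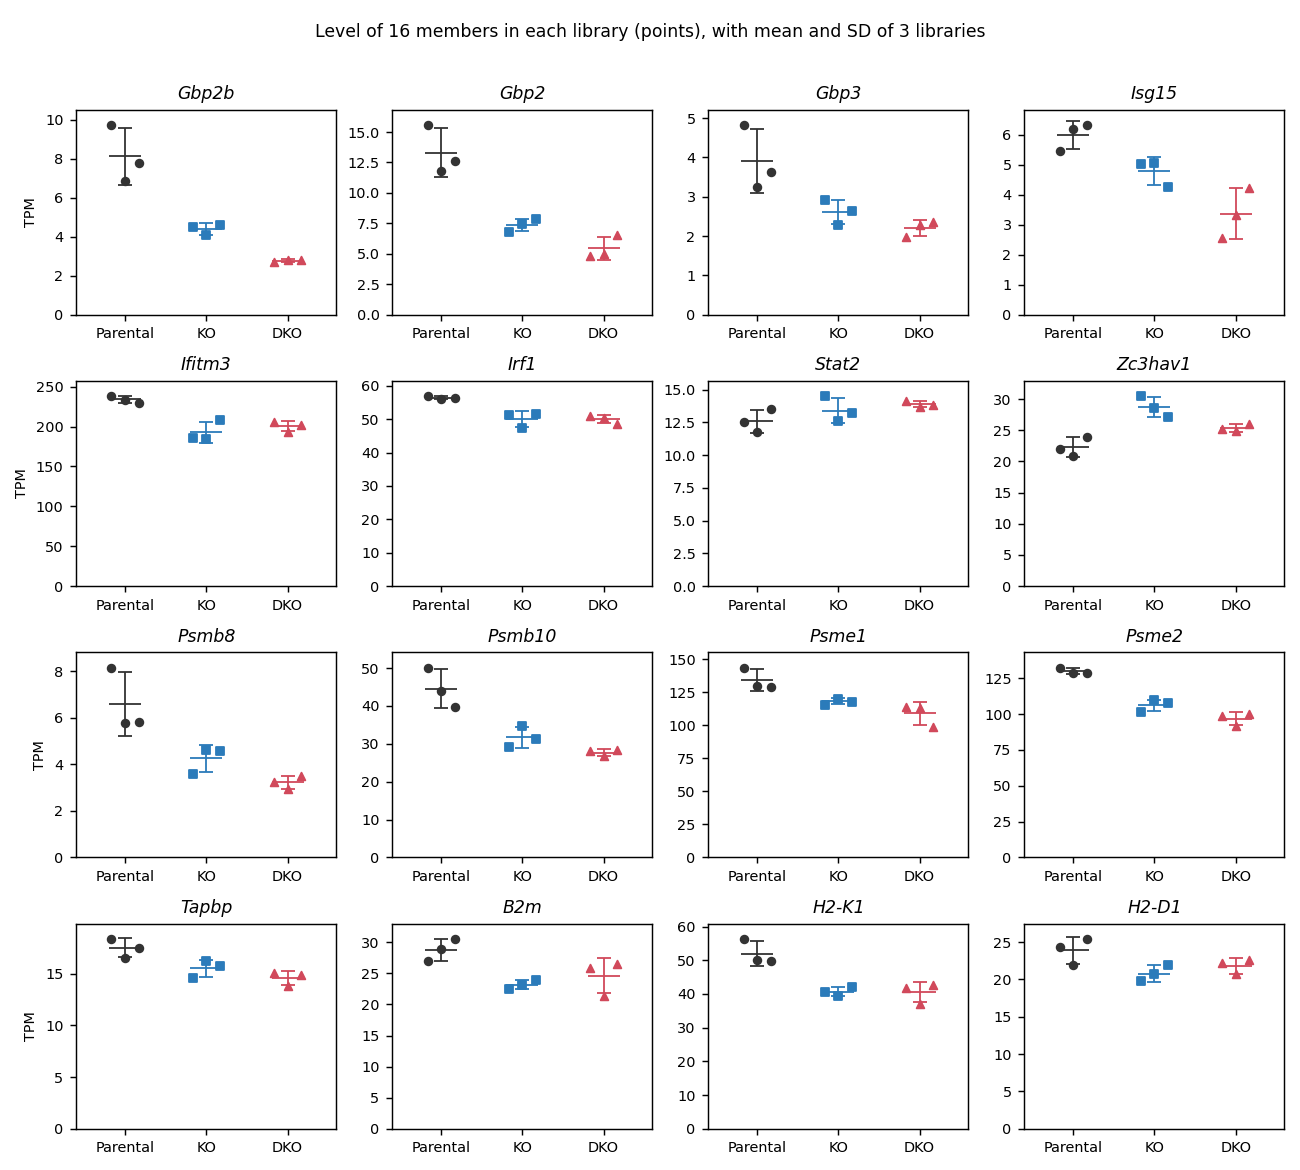
TPM of 16 members in each library (points, 3 per genotype), with the mean and SD of the genotype, on axes that start at 0. KO is Zfp352-KO and DKO is Zfp352/Zfp353-DKO. Gbp2b falls from 6.87 to 9.73 TPM in Parental libraries to 2.7 to 2.82 TPM in Zfp352/Zfp353-DKO libraries. For Stat2 the Zfp352-KO libraries overlap both other genotypes, and the Zfp352/Zfp353-DKO libraries lie above the Parental ones. Zc3hav1 is highest in Zfp352-KO.

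Promoters were read to see which interferon elements the members share. RefSeq windows of 250 bases before to 50 bases after a start (GRCm38.p6) were found for 35 of the 38 members and searched on both strands for the ISRE core GAAANNGAAA and the GAS core TTCNNNGAA. The ISRE core was in 16 of 43 member windows (37.2%), compared with 3.44% of all 32851 windows. It was found for 7 of the 13 members that were lower in either edited genotype and for 9 of the other 22. The GAS core was in 9 of 43 member windows (20.9%) and in 8.30% of all windows, for 3 of the 13 and 6 of the 22. A match describes the letters in the window and is not evidence of binding.

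The 160 bases before a RefSeq start are printed for the 4 effectors with the largest called falls and, for contrast, for Ifit3, which carries 2 ISRE cores and was at most 0.13 TPM in any library. All are 5′ to 3′ on the gene's strand, and capitals mark the ISRE core or its reverse complement, with overlapping matches run together. Gbp2b lies at chr3:142594687-142594846 (+), Gbp2 at chr3:142620503-142620662 (+), Gbp3 at chr3:142559884-142560043 (+), Isg15 at chr4:156200819-156200978 (-) and Ifit3 at chr19:34583369-34583528 (+).
Gbp2b: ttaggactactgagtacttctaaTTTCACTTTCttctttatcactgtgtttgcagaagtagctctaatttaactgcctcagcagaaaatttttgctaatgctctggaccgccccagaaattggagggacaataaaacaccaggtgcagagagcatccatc
Gbp2: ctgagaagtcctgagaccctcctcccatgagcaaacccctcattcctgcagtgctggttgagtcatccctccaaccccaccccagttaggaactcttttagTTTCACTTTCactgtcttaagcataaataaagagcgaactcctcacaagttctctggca
Gbp3: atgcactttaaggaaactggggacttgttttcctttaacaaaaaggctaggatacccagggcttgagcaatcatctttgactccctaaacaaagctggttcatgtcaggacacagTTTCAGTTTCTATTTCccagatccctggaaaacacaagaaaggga
Isg15: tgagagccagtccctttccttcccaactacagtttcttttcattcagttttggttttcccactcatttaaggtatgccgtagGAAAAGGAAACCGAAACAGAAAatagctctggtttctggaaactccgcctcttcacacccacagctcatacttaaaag
Ifit3: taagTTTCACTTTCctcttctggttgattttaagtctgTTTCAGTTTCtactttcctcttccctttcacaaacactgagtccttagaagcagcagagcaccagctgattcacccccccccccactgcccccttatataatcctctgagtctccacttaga
The start used is the base after each printed window. For Gbp2b, Gbp3 and Ifit3 it lies inside the RefSeq span of the gene, downstream of the span's first base. The core nearest to this start begins 59 bases before it in Gbp2, 137 bases in Gbp2b, 39 bases in Gbp3 and 66 bases in Isg15. Gbp3 has 2 overlapping matches and Isg15 has 3.

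Antigen presentation members shared a direction. All 12 had a log2 fold change below 0 in both edited genotypes, as had 7467 of 14300 tested genes in Zfp352-KO and 7156 for Zfp352/Zfp353-DKO cells. In each comparison 6 of the 12 were called lower, against 3.64% and 4.82% of all tested genes. Median log2 fold changes of the 12 members were -0.34 and -0.37. Their summed level was 436 to 472 TPM in Parental libraries, 356 to 378 TPM in Zfp352-KO and 337 to 358 TPM in Zfp352/Zfp353-DKO libraries.

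The immunoproteasome is the form of the proteasome that cuts peptides suited to MHC class I, and Psmb8, Psmb9 and Psmb10 encode its catalytic subunits. Psmb10 was at 50.14, 44.01 and 39.70 TPM in Parental, 29.17, 34.76 and 31.16 TPM in Zfp352-KO and 28.22, 26.66 and 28.36 TPM in Zfp352/Zfp353-DKO libraries. Genotypes did not overlap in TPM, and the Zfp352/Zfp353-DKO libraries were lowest. Psmb10 was 1.45-fold lower in Zfp352-KO (-0.54 ± 0.09, adjusted p = 0.0015) and 1.66-fold lower in Zfp352/Zfp353-DKO cells (-0.73 ± 0.09, adjusted p = 3.5e-05), in all 21 alternatives. Psmb8 was at 8.16, 5.78 and 5.80 TPM in Parental, 3.58, 4.62 and 4.57 TPM in Zfp352-KO and 3.24, 2.96 and 3.50 TPM in Zfp352/Zfp353-DKO libraries. Genotypes did not overlap there either. Psmb8 fell by 0.66 ± 0.18 in Zfp352-KO (adjusted p = 0.032) and by 1.07 ± 0.19 in Zfp352/Zfp353-DKO cells (adjusted p = 0.0013). The former call was lost in 10 of 21 alternatives, among them DESeq2 (adjusted p = 0.053) and the fit without Parental library 1 (0.19), while the latter was kept in all. Psmb9, on 17 to 46 counts a library, overlapped between genotypes and was not called (-0.30 ± 0.25 and -0.26 ± 0.25). The standard catalytic subunits that these replace, Psmb5, Psmb6 and Psmb7, were at 384 to 843 TPM on average and had log2 fold changes of -0.17 to -0.07, none of them called.

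Psme1 and Psme2 encode the PA28 proteasome activator and lie side by side on chromosome 14, at 55578494 to 55581527 and 55587440 to 55591101. Psme2 was at 132.41, 128.90 and 128.67 TPM in Parental, 101.75, 109.53 and 107.60 TPM in Zfp352-KO and 98.57, 91.43 and 99.80 TPM in Zfp352/Zfp353-DKO libraries. Psme1 was at 143.59, 129.96 and 128.77 TPM in Parental, 115.15, 119.73 and 117.92 TPM in Zfp352-KO and 113.88, 113.16 and 98.76 TPM in Zfp352/Zfp353-DKO libraries. For both genes the genotypes did not overlap in TPM, with Parental highest and Zfp352/Zfp353-DKO lowest. Psme2 fell by 0.33 ± 0.06 in Zfp352-KO (adjusted p = 0.0026) and by 0.46 ± 0.06 in Zfp352/Zfp353-DKO cells (adjusted p = 4.6e-05), in all 21 alternatives. Psme1 fell by 0.24 ± 0.07 (adjusted p = 0.045) and by 0.34 ± 0.07 (adjusted p = 0.0042). The Psme1 call in Zfp352-KO cells was lost in 11 alternatives, with adjusted p up to 0.29. Counts of Psme2 were not whole in 9 of 9 libraries, so some of its reads also fit another row. Irf9, which follows on the same chromosome at 55603985 to 55610030, was not called in either comparison.

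Peptides reach MHC class I through the TAP transporter (Tap1, Tap2) and its tether tapasin (Tapbp). Tapbp was at 18.35, 16.54 and 17.50 TPM in Parental, 14.58, 16.18 and 15.74 TPM in Zfp352-KO and 15.06, 13.81 and 14.91 TPM in Zfp352/Zfp353-DKO libraries. Parental libraries were the highest, and the edited genotypes overlapped. Tapbp fell by 0.30 ± 0.07 in Zfp352/Zfp353-DKO cells (adjusted p = 0.015), and this call was lost without Parental library 1 (adjusted p = 0.10) or Zfp352/Zfp353-DKO library 2 (0.079) and by limma-trend with either pseudocount (0.073 and 0.069). Its counts were not whole in 9 of 9 libraries. Tapbp differed by -0.21 ± 0.07 in Zfp352-KO cells (adjusted p = 0.073). Tap1 and Tap2, at 3.83 ± 0.287 and 3.04 ± 0.564 TPM in Parental cells, had log2 fold changes of -0.27 to -0.49 with standard errors of 0.14 to 0.17 and were not called. Psmb9, Tap1, Psmb8 and Tap2 are neighbours on chromosome 17, between 34182030 and 34216321. Of these 4 genes only Psmb8 was called, and its change was not tested against theirs.

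MHC class I itself is a heavy chain, encoded by H2-K1 or H2-D1, paired with beta-2 microglobulin from B2m. H2-K1 was at 56.32, 49.96 and 49.82 TPM in Parental, 40.65, 39.40 and 41.97 TPM in Zfp352-KO and 41.76, 37.06 and 42.65 TPM in Zfp352/Zfp353-DKO libraries. All edited libraries were below all Parental ones, and the edited genotypes overlapped. H2-K1 was 1.32-fold lower in both, with log2 fold changes of -0.40 ± 0.07 (adjusted p = 0.0018 and 0.0010) in all 21 alternatives. H2-D1 was at 24.32, 21.90 and 25.43 TPM in Parental, 19.74, 20.78 and 21.91 TPM in Zfp352-KO and 22.22, 20.68 and 22.65 TPM in Zfp352/Zfp353-DKO libraries, with overlap in TPM. In CPM all edited libraries of H2-D1 were below all Parental ones. H2-D1 was not called (-0.24 ± 0.08, adjusted p = 0.062, and -0.17 ± 0.07, adjusted p = 0.17). In Zfp352-KO cells it passed the threshold in 2 of 21 alternatives (adjusted p = 0.039 and 0.048). B2m was at 26.98, 28.95 and 30.53 TPM in Parental, 22.47, 23.13 and 23.89 TPM in Zfp352-KO and 25.84, 21.36 and 26.57 TPM in Zfp352/Zfp353-DKO libraries. Parental libraries were again the highest. B2m fell by 0.36 ± 0.10 in Zfp352-KO cells (adjusted p = 0.034), a call lost in 10 of 21 alternatives, and differed by -0.27 ± 0.10 in Zfp352/Zfp353-DKO cells (adjusted p = 0.092). Nlrc5, which encodes the activator of class I genes, was at 0.18 to 0.51 TPM in all libraries and was not called.

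H2 class I genes are related in sequence and had divided reads, with counts that were not whole in 9 of 9 libraries for both H2-K1 and H2-D1, so single values are uncertain. Summed after the data were seen, H2-K1 and H2-D1 fell by 0.35 ± 0.06 and 0.32 ± 0.06 (adjusted p = 0.0022 and 0.0024). All 20 rows of H2-K, H2-D, H2-L, H2-Q, H2-T and H2-Bl genes together fell by 0.32 ± 0.06 and 0.34 ± 0.06 (adjusted p = 0.0051 and 0.0022). In the fixed list of 28 further antigen presentation genes, 22 were tested. Canx, the chaperone calnexin of class I folding, was higher in Zfp352-KO cells (0.17 ± 0.05, adjusted p = 0.046). Erap1, the peptidase that trims class I peptides (-0.40 ± 0.11, adjusted p = 0.031), and the class I gene H2-Bl (-0.45 ± 0.11, adjusted p = 0.020) were lower in Zfp352/Zfp353-DKO cells. DESeq2 and limma-trend called H2-Bl but not Erap1, and only DESeq2 called Canx.

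For the promoters of 3 called genes outside the Gbp family, the elements are shown because they differ in kind: an ISRE core in B2m, and a GAS core in Irf1 and Psmb8. Capitals mark the core, and the windows are B2m at chr2:122147527-122147686 (+), Irf1 at chr11:53769854-53770013 (+) and Psmb8 at chr17:34198035-34198194 (+), on the strand of the gene.
B2m: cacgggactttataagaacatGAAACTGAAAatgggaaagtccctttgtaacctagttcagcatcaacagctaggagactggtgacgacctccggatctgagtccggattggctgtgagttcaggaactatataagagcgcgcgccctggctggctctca
Irf1: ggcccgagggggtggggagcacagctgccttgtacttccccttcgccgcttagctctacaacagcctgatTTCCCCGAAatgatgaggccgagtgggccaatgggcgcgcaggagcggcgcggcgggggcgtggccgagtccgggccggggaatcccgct
Psmb8: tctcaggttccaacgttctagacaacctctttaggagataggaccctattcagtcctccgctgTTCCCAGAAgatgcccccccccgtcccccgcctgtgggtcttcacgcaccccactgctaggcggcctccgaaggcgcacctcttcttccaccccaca
The core begins 139 bases before the start in B2m, 90 bases in Irf1 and 97 bases in Psmb8.

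Between Zfp352/Zfp353-DKO and Zfp352-KO cells no member was called by edgeR, where 0.0909% of all tested genes were lower and 0.014% higher. DESeq2 and limma-trend on TPM also called 0 members. At an unadjusted p under 0.05 there were 919 of all 14300 tested genes, among them 5 members (Zc3hav1, Isg15, Gbp2b, Gbp2 and Psme2). The largest of these differences by p was that of Gbp2b, at -0.65 ± 0.14 (edgeR adjusted p = 0.10), which passed the threshold without the filter on low counts (adjusted p = 0.0091) and with a trend on transcript length removed (0.042). For Gbp2 the difference was -0.45 ± 0.13 (adjusted p = 0.35) and for the summed pair -0.53 ± 0.11 (adjusted p = 0.088). In CPM, 4 tested members (Isg15, Gbp2b, Gbp2 and Psmb8) had all Parental libraries above all Zfp352-KO libraries and these above all Zfp352/Zfp353-DKO libraries, an order held by 1.1% of all tested genes. In TPM the order also held for Psmb10, Psme1 and Psme2, making 7 members, against 1.02% of all tested genes. The median difference of the members was 0.00.

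Of the 13 members lower in either edited genotype, 10 were called in both comparisons with the shared Parental libraries. They were Irf1, Ifitm3, Gbp2b, Gbp2, Gbp3, Psmb8, Psmb10, Psme1, Psme2 and H2-K1. B2m passed the threshold only in Zfp352-KO and Isg15 and Tapbp only in Zfp352/Zfp353-DKO cells, and for none of these 3 was the difference between the edited genotypes called.

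Fibroblast-type and trophectoderm markers were lower in the edited cells too. Of 17 tested genes in a list of 20 fibroblast-type markers, 9 were lower in each edited genotype, against 3.64% and 4.82% of all tested genes. Fn1 of this list was higher in Zfp352-KO. The summed list was at 930 to 994 TPM in Parental libraries, 830 to 876 TPM in Zfp352-KO and 744 to 779 TPM in Zfp352/Zfp353-DKO libraries. The collagen gene Col1a1 fell by 1.15 ± 0.09 and 1.66 ± 0.09 (adjusted p = 4.8e-07 and 2e-09), from 1885 counts over the 3 Parental libraries to 814 in the single and 568 in the double knockout, while Lum, another fibroblast gene, had 1 count over the 9 libraries. Of 9 tested trophectoderm markers 5 were lower in each edited genotype, with sums of 401 to 459, 294 to 299 and 262 to 274 TPM. Of 8 tested primitive endoderm markers, Sparc was lower in each edited genotype and Lama1 higher in Zfp352/Zfp353-DKO. Endothelial markers (5 tested) and leukocyte markers (4 tested) had 0 lower calls by edgeR, DESeq2 or limma-trend. At an unadjusted p under 0.05, in either direction, they had 2 and 1 genes in Zfp352-KO and 2 and 2 in the double knockout. Of all 14300 tested genes, 3396 and 3508 were under that value. In the endothelial and the leukocyte list 1 gene each was higher in Zfp352/Zfp353-DKO, Pecam1 and Laptm5. Of 12 pluripotency markers 0 were lower by edgeR, DESeq2 or limma-trend, 2 were higher in Zfp352-KO and 3 for Zfp352/Zfp353-DKO cells. Their part in the fall of the interferon and class I genes was not tested. In bulk libraries, fewer cells of a type and less RNA per cell cannot be told apart.

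**Figure D4:**
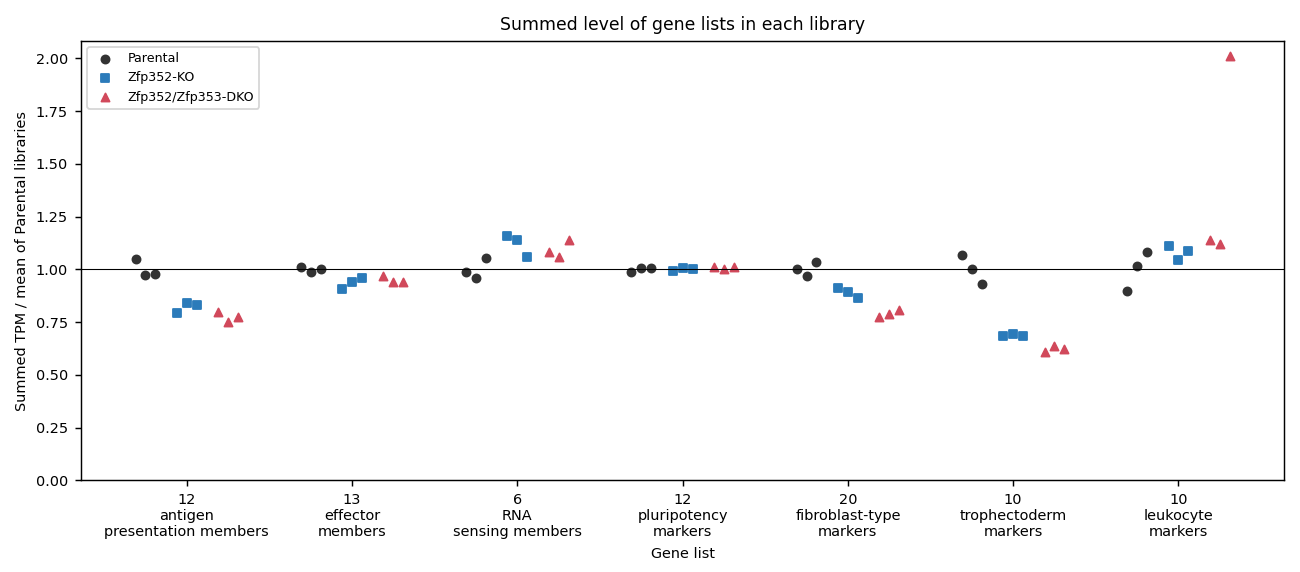
Summed TPM of 7 gene lists in each library, divided by the mean of the 3 Parental libraries (line at 1), with 1 symbol per genotype. Antigen presentation members, fibroblast-type and trophectoderm markers lie below 1 in all 6 edited libraries, pluripotency markers lie near 1, and the leukocyte markers are highest in Zfp352/Zfp353-DKO library 3.

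Transcript length moved with the calls as well. The 13 members lower in either edited genotype had a median transcript length of 1270 bases, against 2384 for the 33 tested members and 2803 for all tested genes. Across the 14300 genes, the rank correlation of length with a library's log2 level, less the mean of all libraries, was -0.401 to -0.0818 in Parental, -0.0659 to 0.388 in Zfp352-KO and -0.127 to 0.36 in Zfp352/Zfp353-DKO libraries. With the trends on GC content and length removed from each library, 9 members were lower and 1 higher in Zfp352-KO cells, and 11 lower and 1 higher in Zfp352/Zfp353-DKO cells. All genes then split into 413 higher and 358 lower in Zfp352-KO and 797 higher and 647 lower in Zfp352/Zfp353-DKO cells, compared with 490 and 520, and 522 and 689, before. The median of the members moved to -0.16 and -0.14, beside 0.01 and 0.02 for all genes.

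The Gbp genes were hardly touched by this removal, at -0.97 and -1.62 for Gbp2b and -0.87 and -1.33 for Gbp2. Several short genes moved more. Ifitm3 went from -0.32 to -0.19 in Zfp352-KO cells (adjusted p = 0.012), Bst2 from -0.22 to -0.04, and Psme1 from -0.24 to -0.10, where its call was lost (adjusted p = 0.29). Ifitm1 and Ifitm2 changed sign in both comparisons, to 0.02 and 0.07 in Zfp352-KO and 0.02 and 0.10 in Zfp352/Zfp353-DKO cells, with no call before or after. Irf1 lost its call in both genotypes (adjusted p = 0.11 and 0.062), and Psmb8 lost its call in Zfp352-KO cells (adjusted p = 0.071). Ifnar1, with a long transcript, was called lower in Zfp352-KO cells after the removal (-0.20, adjusted p = 0.019), and Zc3hav1 was called higher in Zfp352/Zfp353-DKO cells too (0.15, adjusted p just under 0.050). With the trend on length alone removed, 8 members were lower and 1 higher in Zfp352-KO cells. In Zfp352/Zfp353-DKO cells 11 were lower and 0 higher. B2m then lost its call in Zfp352-KO cells (-0.24, adjusted p = 0.16), which it kept with GC content included (-0.35, 0.031). Ifitm3 lost its call in Zfp352/Zfp353-DKO cells (-0.14, adjusted p = 0.072).

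**Figure D5:**
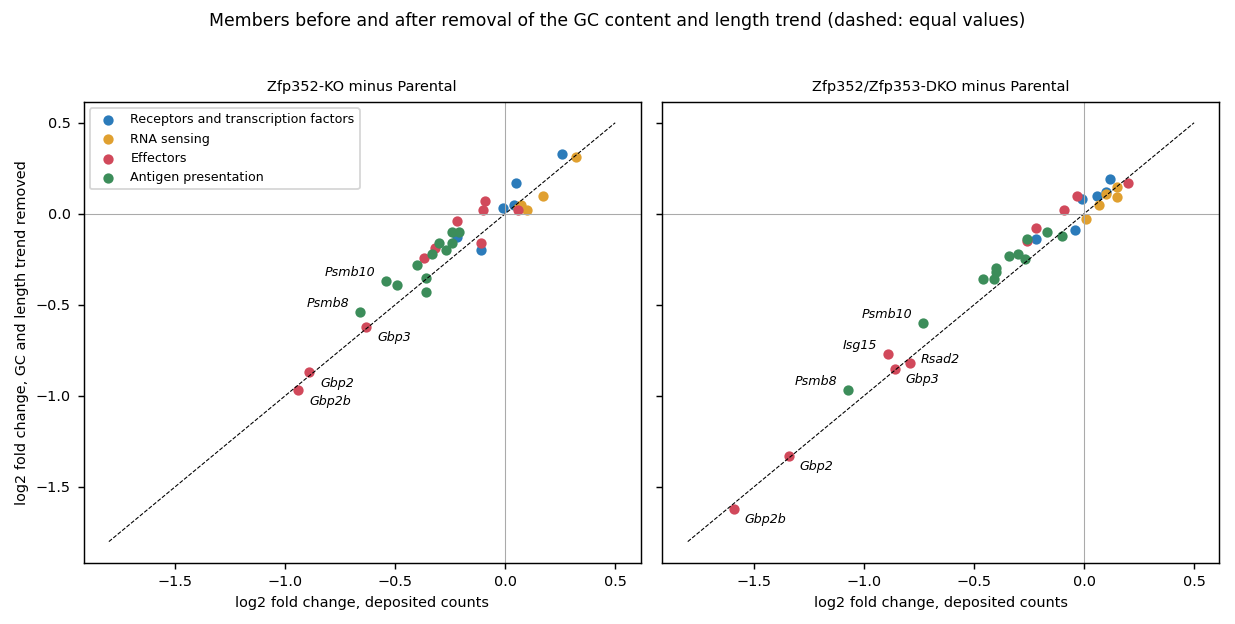
Log2 fold change of each tested member against Parental cells from the deposited counts (x axis) and after the GC content and length trend was removed from each library (y axis), coloured by role, for both edited genotypes. Gbp2b, Gbp2 and Gbp3 lie on the line of equal values, and most antigen presentation members lie above it, closer to 0.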

How the data were processed

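Polyadenylated RNA was sequenced as single-end reads of 75 bases from stranded libraries, per the labels' protocols. The submitters' processing notes name RSEM 1.3.3, STAR 2.7.8a, Trim Galore 0.6.6 and the mm10 build. Sources used here do not give the annotation release or the strand setting of the counting. Per the file headers, the authors deposited an expected count, a TPM value and a transcript length for each gene. An expected count is an estimate that divides shared reads, and 9.27% of these values were not whole. Transcript lengths from the deposited tables were used for the length trend. FPKM was not used.

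Rounded expected counts went into edgeR 4.0.16 under R 4.3.3 (TMM, filterByExpr, glmQLFit and glmQLFTest, two-sided). All 9 libraries entered 1 fit by genotype, with no block, and 6 residual degrees of freedom. Benjamini-Hochberg adjustment ran over all 14300 tested genes, with a threshold of 0.05. SEs came from the F statistic. Libraries within a genotype were further apart than sampling noise allows (chi-square per degree of freedom 2.49 to 6.91). Precision follows depth, so genes under 50 counts a library, such as Isg15 and Psmb9, have the widest errors among those described.

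On counts simulated from the real means, 74% of genes changed 1.5-fold and 88% changed 2-fold were recovered for Zfp352-KO against Parental (14194 genes), 76% and 84% for Zfp352/Zfp353-DKO against Parental (14169 genes), and 82% and 89% between the edited genotypes (14177 genes). In the same runs 14, 8 and 17 unchanged genes were called. The simulated counts held no trend on length or GC content and no outlying library, so these rates may not hold for the real libraries.

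Alternatives were RLE and upper-quartile scaling, DESeq2 1.42.0, limma-trend (limma 3.58.1) on log2(TPM + 1) and log2(TPM + 0.1), other filters and thresholds, unrounded counts, a replicate block, the 6 libraries compared, the omission of each library, and local regression trends (span 0.3) on length, or on GC content and length, entered as offsets. GC content was found for 14249 tested genes (99.6%). Summed counts of related genes with divided reads were added after the data were seen. Overlap of libraries was judged in CPM unless TPM is named. Coordinates and promoters are from RefSeq, GRCm38.p6, and are 1-based.

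Members and lists were chosen with earlier results of these data known. Values in every library are given for members called in at least 1 comparison with a mean of at least 1 TPM in a genotype, and for Stat2, Irf3, Irf9, Ifnar1, Ifnar2, B2m, H2-K1 and H2-D1. Other members are given by range and count, and pathway genes by count, with the called ones named. Of 138 further pathway genes 137 were in the tables.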

Additional observations from a re-analysis of the deposited data

Results flagged for a closer look

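In 1 library, Zfp352/Zfp353-DKO library 3, 3 leukocyte genes that were too low elsewhere to be tested gave a signal above every Parental library. Lyz2, the macrophage lysozyme gene, was at 19.69 TPM there, at most 0.35 TPM in Parental libraries and at most 0.58 TPM in any other library. Tyrobp, an adaptor of myeloid receptors, was at 1.89 TPM there and at most 0.19 TPM elsewhere. Adgre1, which encodes the macrophage antigen F4/80, was at 1.11 TPM there and at most 0.11 TPM elsewhere.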

How the results depend on the processing

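Of 24 called member comparisons, 15 kept their call in all 21 alternatives, and no called value changed direction. These were Gbp2b, Gbp2, Psmb10, Psme2 and H2-K1 in both edited genotypes, Ifitm3 and Zc3hav1 in Zfp352-KO, and Gbp3, Psmb8 and Psme1 in Zfp352/Zfp353-DKO cells. Where other calls were lost, the cause was not tested. The 12 members called in Zfp352-KO against Parental became 7 with limma-trend on log2(TPM + 1) or log2(TPM + 0.1) and 7 at a threshold of 0.01, and ranged from 7 to 13 without single libraries (7 without Parental library 1, Zfp352-KO library 1 or Zfp352-KO library 2). In Zfp352/Zfp353-DKO against Parental they ranged from 8, without Zfp352/Zfp353-DKO library 2, to 13. Between the edited genotypes 1 member, Gbp2b, was called with no filter on low counts, with the length trend removed and after removal of the trend on GC content and length.

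Over all genes, the 1010 called in Zfp352-KO against Parental became 359 and 352 with limma-trend (pseudocounts 1 and 0.1), 257 and 1882 at thresholds of 0.01 and 0.10, and 210 to 1552 without single libraries. Those 2 extremes were without Parental library 1 and without Zfp352/Zfp353-DKO library 3. The 1211 called in Zfp352/Zfp353-DKO against Parental became 578 and 570, 467 and 1989, and 449 (without Parental library 1) to 1337 without single libraries. The 15 called between the edited genotypes became 23 with DESeq2, 1 and 1 with limma-trend, 66 with no filter, 3 with the 6 libraries alone, 40 and 52 with the length and the GC content and length trends removed, 3 and 26 at the other thresholds, and 3 to 21 without single libraries.

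Libraries of different genotypes share only a replicate number in the labels. Deviations of same-numbered libraries correlated at -0.0736 to 0.105 over 9 pairs, and those of differently numbered libraries at -0.0914 to 0.0971. Of the 9 libraries, 6 correlated best with their own number. These values do not settle whether the numbers mark pairs. The main fit used no block because the labels state no pairing. With the number as a replicate block, 569 genes were called in Zfp352-KO against Parental, and 8 members, where B2m, Irf1, Psmb8 and Psme1 lost their calls (adjusted p = 0.056, 0.055, 0.062 and 0.065). In the other comparisons the block changed no member's call.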
